A study of Homo sapiens with 3 samples.

Results

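Deoxynucleotides, the building blocks of DNA, were followed through the transcripts of 9 enzymes that make or remove them: TYMS, RRM1, RRM2, RRM2B, TK1, DUT, DTYMK, DCK and SAMHD1. The genes were chosen by their symbols, through the probe sets that carry 1 symbol in the platform annotation, and all 9 were measured among 18417 genes in all. The study deals with the chromatin remodeller CHD8 and the genes of S phase, and this series measures the transcripts of the tumour line in which CHD8 binding was mapped. The samples are 3 independent cultures of C33A, a human cervical carcinoma line, growing exponentially with no treatment applied, and each was hybridized to 1 Affymetrix Human Gene 1.0 ST array. All samples belong to 1 group, so there is no control, no contrast and no test between conditions. C33A is known to be free of papillomavirus and to carry a mutant RB1 gene, and what is shown here holds for this line alone.

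Ribonucleotide reductase makes deoxynucleotides by reducing ribonucleotides, with a large subunit that holds the active site and a small subunit that holds the radical. Thymidylate follows its own route, in which dUTP is cleaved to dUMP, methylated to dTMP and phosphorylated, while salvage kinases recover deoxynucleosides from outside or from breakdown. Most of these genes are known to be transcribed at the entry into S phase under E2F control, whereas RRM2B is known for its use outside S phase and SAMHD1 as the enzyme that breaks deoxynucleotides down again.

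The promoters of the enzymes differ in the short motifs they hold, and stretches with E2F-like or NF-Y-like letters before a start are shown because these are factors often named for S phase genes. Windows from 250 bases before to 50 bases after each annotated transcript start were taken from RefSeq (GRCh38.p14), and 8 of the 9 genes matched, with 13 windows, RRM2B being the member with no entry. Each stretch has 30 bases, 5′ to 3′ on the strand of the gene, and the capitals mark a match. The stretch of RRM2 at the far end of the window of its upstream start is not shown.

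TYMS, chr18:657603-657632, plus strand: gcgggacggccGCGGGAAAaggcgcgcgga
DUT, chr15:48332152-48332181, plus strand: ctgGCGGGAAAtttcggtTTTGGCGCgctc
RRM1, chr11:4094645-4094674, plus strand: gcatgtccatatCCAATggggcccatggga
RRM2, chr2:10122604-10122633, plus strand: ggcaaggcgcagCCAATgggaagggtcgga
RRM2, chr2:10122634-10122663, plus strand: ggcatggcacagCCAATgggaagggccggg
RRM2, chr2:10122661-10122690, plus strand: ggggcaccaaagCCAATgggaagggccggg
TK1, chr17:78187112-78187141, minus strand: ggccgggcgctgATTGGccccatggcggcg
TK1, chr17:78187081-78187110, minus strand: ggccggctcgtgATTGGccagcacgccgtg
DTYMK, chr2:241686886-241686915, minus strand: ggccccggCCAATcccTTCGAAtttggccg
DTYMK, chr2:241686822-241686851, minus strand: tgttgacgccggCCAATgggagctccggaa
SAMHD1, chr20:36951735-36951764, minus strand: caggaggCCAATaggctgCCAATactcctt

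The E2F-like letters TTTGGCGC, TTTCCCGC, TTTCGCGC and TTTGGCGG were searched on both strands, and 3 of the 8 genes held at least 1 of them, TYMS, DUT and DCK, beside 4.05% of all 27305 genes in the table. Counted by window, 3 of 13 held at least 1, beside 3.35% of all 35116 windows. A gene with more windows has more places for a match, which affects each share by gene given here. TYMS holds TTTCCCGC on the opposite strand, 39 bases before its start. DUT, the dUTPase, holds TTTCCCGC on the opposite strand and TTTGGCGC on its own strand, 42 and 27 bases before the most downstream of its 4 annotated starts, and no E2F-like letters in its other 3 windows. In DCK the match lies after the start. The NF-Y-like box CCAAT, searched on both strands, was held by 5 genes, RRM1, RRM2, TK1, DTYMK and SAMHD1, beside 39.7% of all genes. RRM2 has 3 copies, 123, 93 and 66 bases before the downstream of its annotated starts. Another copy of the box lies at the far end of the window of its upstream start. TK1 has 2 copies on the opposite strand, 77 and 46 bases before its downstream start. The CHR-like letters TTCGAA, which read the same on both strands, were held by DTYMK, beside 1.82% of all genes, and TTTGAA, searched on both strands, by RRM1 and DUT, beside 18.2%. The GC box GGGCGG, searched on both strands, was held by 6 of the 8 genes, beside 48.3% of all genes. The letters of these motifs can lie within one another in part, and windows of 1 gene overlap. No protein was mapped in the data used here, so the matches are letters only, and no match says only that these letters are not in this window.

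**Figure D1:**
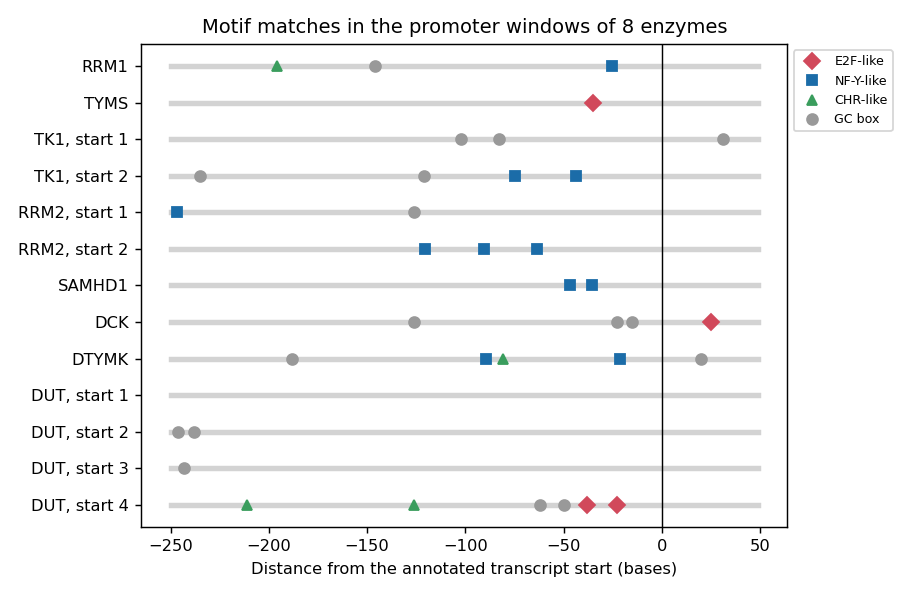
Positions of motif matches (symbols) in the RefSeq promoter windows (grey lines) of 8 enzymes, with the distance from the annotated transcript start in bases on the x axis and starts of a gene numbered in the direction of transcription. The 3 NF-Y-like boxes of RRM2 and the 2 of TK1 stand before their downstream starts, and the 2 E2F-like matches of DUT before its start 4.

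Transcript levels are given as log2 intensities, the unit of the deposited values, averaged over the arrays with the SD between them. Probe sequence affects how bright a probe set is, so an order of genes, or a difference between them, is one of signal and not of molecules. No detection call comes with the values. Background was judged from 459 genes of families silent in most tissues (beta-defensins, keratin-associated proteins, and the receptors of smell and taste), with a median level of 4.05 and a 95th percentile of 6.42. The median level of all genes was 6.91. Between arrays, Pearson's r across genes lay from 0.996 to 0.997. The label was set against cell type markers: 1 of 7 epithelial markers exceeded the bound of 6.42, KRT18 at 7.75 ± 0.11 (SD, n = 3 cultures), while EPCAM was at 4.52 ± 0.29, so that most defining epithelial markers were not above background. Of leukocyte, fibroblast and endothelial markers, 1 of 5, 3 of 7 and 1 of 7 exceeded it, beside 56.4% of all genes. The highest were the leukocyte marker PTPRC at 8.82 ± 0.11 and the fibroblast marker COL3A1 at 11.36 ± 0.06, and what these signals mean for the enzymes was not tested.

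All 9 enzymes lay above the bound of the silent families on the mean and on each array, beside 56.4% of all genes. The lowest of them, DUT, was 1.49 log2 above it. The highest gene of the silent families was at 8.84, and DCK, DTYMK, RRM2B and DUT had lower means than that. Of the 9, 4 were in decile 10, the genes of highest level, which began at 9.83 and holds 10% of all genes by construction: RRM1, TYMS, TK1 and RRM2. SAMHD1 was in decile 9, DCK, DTYMK and RRM2B were in decile 8 and DUT was in decile 7. The median level of the 9 was 9.50 ± 0.05 log2 (SD of the median over the 3 arrays), at a median percentile of 86.3 among all genes.

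**Figure D2:**
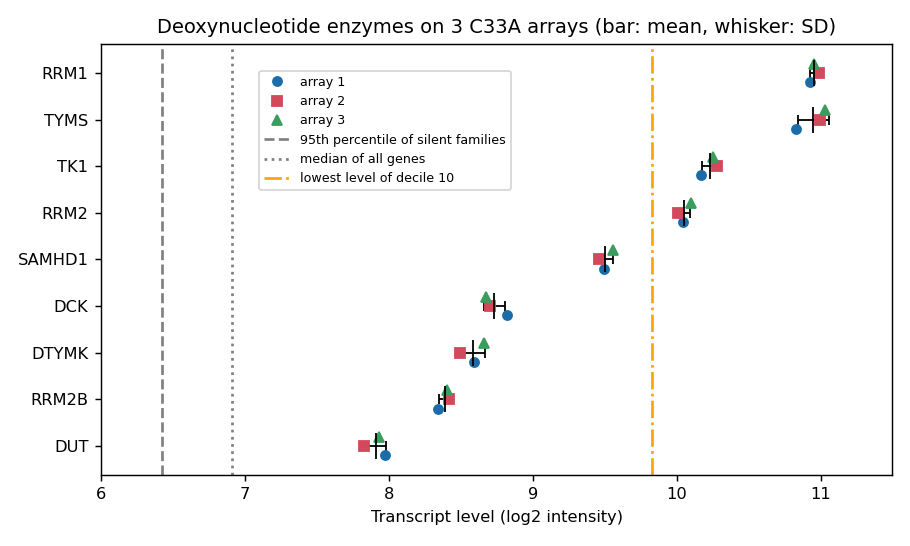
Transcript level of the 9 enzymes (x axis, log2 intensity) on each of the 3 C33A arrays (symbols), with the mean (vertical bar) and SD (whisker). All points lie right of the 95th percentile of the silent families at 6.42, and RRM1, TYMS, TK1 and RRM2 lie right of the start of decile 10 at 9.83.

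The subunits of ribonucleotide reductase were all measured. RRM1, the large subunit needed with either small subunit, was at 10.93, 10.99 and 10.95 log2 on arrays 1, 2 and 3, a mean of 10.96 ± 0.03 (SD, n = 3 cultures). It had the highest mean and the smallest SD of the 9 enzymes. RRM2, the small subunit of S phase, was at 10.04, 10.01 and 10.10, a mean of 10.05 ± 0.04. RRM2B, the small subunit known from DNA damage and from resting cells, was at 8.35, 8.42 and 8.41, a mean of 8.39 ± 0.04. The arrays gave the same order for these subunits, RRM1 above RRM2 above RRM2B, with values that did not overlap. On each array RRM1 stood between percentiles 97.2 and 97.4 of all genes, RRM2 between 91.6 and 92.4 and RRM2B between 69.9 and 70.7. RefSeq lists 3 pseudogene copies of RRM2, none of them measured as a gene here, and whether they add to the signal was not tested.

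On the thymidylate route the levels spread widely. TYMS, which methylates dUMP to dTMP and is the target of fluorouracil, was at 10.83, 10.99 and 11.03 log2 on arrays 1, 2 and 3, a mean of 10.95 ± 0.11 (SD, n = 3). Array 1 was the low one, 0.20 below array 3. DUT, which cleaves dUTP and so supplies dUMP while keeping uracil out of DNA, was at 7.97, 7.83 and 7.93, a mean of 7.91 ± 0.07. It was the lowest of the 9 on each array, at percentiles between 61.9 and 64.2. The deposited values have 1 probe set for DUT, and so 1 value for its nuclear and mitochondrial forms together. RefSeq lists 8 pseudogene copies of DUT and an overlapping antisense RNA, DUT-AS1, none of which was measured as a gene here. DTYMK, the kinase that turns dTMP into dTDP, was at 8.59, 8.50 and 8.66, a mean of 8.58 ± 0.08. DTYMK has 2 probe sets with equal values on all 3 arrays, which count as 1 measurement. Of the 769 genes with more than 1 probe set, 145 hold probe sets with equal values on all arrays, compared to 5 decimals.

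TYMS overlaps other genes in RefSeq. One of them, the long non-coding RNA TYMSOS, was at 7.80, 7.48 and 7.63 log2 on arrays 1, 2 and 3, a mean of 7.64 ± 0.16 (SD, n = 3), in decile 6. Its highest array, array 1, was the one on which TYMS was lowest. Its lowest was array 2, while TYMS was highest on array 3, and no relation between them was tested. The other, ENOSF1, was not measured as a gene here. RefSeq also lists 2 pseudogene copies of TYMS, not measured as genes here, and whether they add to its signal was not tested. SAMHD1 overlaps TLDC2, which was at 6.16, 5.94 and 6.08 and so below the bound on the mean. Whether the probe sets of overlapping genes share signal was not tested.

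The salvage kinases of the cytosol were at unlike ranks. TK1, the thymidine kinase of S phase, was at 10.17, 10.28 and 10.25 log2 on arrays 1, 2 and 3, a mean of 10.23 ± 0.06 (SD, n = 3), in decile 10. DCK, the deoxycytidine kinase that also activates cytarabine and gemcitabine, was at 8.82, 8.71 and 8.68, a mean of 8.73 ± 0.08, in decile 8. The mitochondrial deoxynucleoside kinases, named for their roles after their values were seen, were at 8.08 ± 0.05 for TK2, in decile 7, and 8.82 ± 0.04 for DGUOK, in decile 8. The values of TK1 and TK2 did not overlap, while those of DCK and DGUOK, which lay between 8.77 and 8.86 for DGUOK, did.

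SAMHD1, the hydrolase that removes deoxynucleoside triphosphates and restricts retroviruses in resting myeloid cells, was at 9.49, 9.46 and 9.56 log2 on arrays 1, 2 and 3, a mean of 9.50 ± 0.05 (SD, n = 3). It was the fifth of the 9 on each array, at percentiles between 85.6 and 87.1, below RRM2 and above DCK. Its transcript was thus above the bound in cycling cells on 3 of 3 arrays, and the state of the protein, which is known to be set by phosphorylation, was not measured.

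By mean signal the order was RRM1, TYMS, TK1, RRM2, SAMHD1, DCK, DTYMK, RRM2B and DUT. Of the 8 neighbouring pairs in it, 7 stood in the same order on all 3 arrays. The exception was RRM1 and TYMS, whose difference of 0.01 ± 0.09 log2 (SD, n = 3) was smaller than its spread, with TYMS the higher on arrays 2 and 3. DCK and DTYMK differed by 0.15 ± 0.12, and by 0.01 on array 3. The widest gap, between SAMHD1 and DCK, was 0.77 ± 0.11. These differences compare signals of different probe sets and carry no test.

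The spread between cultures was at the median smaller than that of all genes, but not smaller than that of genes of like level. The SD of the 9 enzymes ran from 0.03 for RRM1 to 0.11 log2 for TYMS, with a median of 0.06, beside a median of 0.08 for all genes, in which the SD fell as the level rose. Set against genes of their own decile, 7 of the 9 had an SD above the median of that decile, RRM1 and RRM2B being the exceptions. TYMS had a wider SD than 94.0% of the genes of decile 10, whose median SD was 0.04. RRM2 and TK1, of the same decile, had a wider SD than 51.9% and 65.4% of its genes. No array was the lowest for all members: array 1 was lowest for 4 (RRM1, TYMS, TK1 and RRM2B), array 2 for 4 (RRM2, SAMHD1, DTYMK and DUT) and array 3 for DCK. With 3 cultures of 1 condition these deviations have no label to be compared with.

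**Figure D3:**
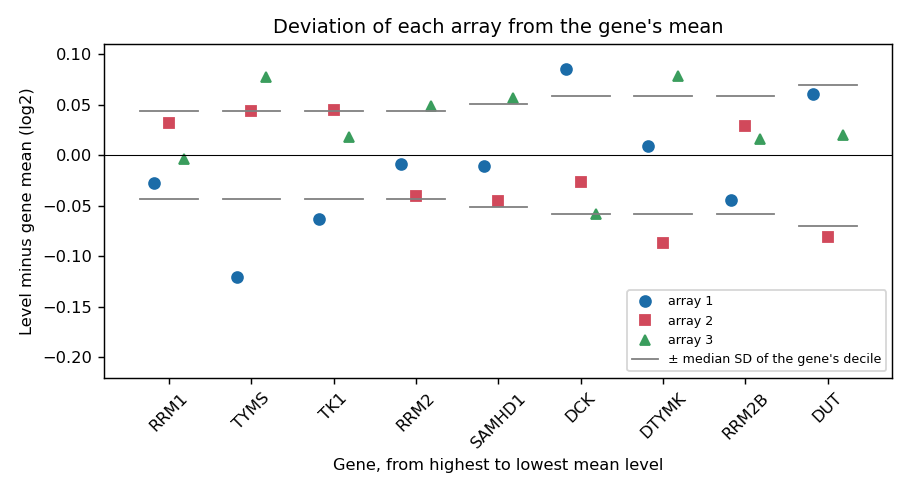
Level on each array minus the mean of the gene (y axis, log2) for the 9 enzymes in order of mean level, with grey lines at plus and minus the median SD of the genes of the same decile. TYMS on array 1, at -0.12, lies farthest from its mean, while the points of RRM1 and RRM2B stay within the grey lines.

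The steps that feed or border these enzymes were described with 8 lists, of which 83 genes were measured. In 6 of the lists each measured gene lay above the bound, as the 9 enzymes did. Over all genes, 56.4% lay above it and 10% were in decile 10. Pyrimidine synthesis had 5 of 5 genes above it, with a median of 9.93 and 3 genes in decile 10, from CTPS1, a CTP synthase, at 10.55 ± 0.05 log2 (SD, n = 3), and CAD, which carries the first steps, at 9.93 ± 0.08, down to CTPS2 at 8.33 ± 0.06 and DHODH at 8.02 ± 0.05. Purine synthesis had 12 of 12 genes above the bound, a median of 10.40 and 8 genes in decile 10. PAICS and IMPDH2 were its highest, at 11.30 ± 0.04 and 11.22 ± 0.02, and ADSS1 and IMPDH1 its lowest, at 8.73 ± 0.06 and 8.70 ± 0.11.

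Around TYMS itself, 6 of 6 measured genes that supply dUMP or folate lay above the bound, beside 56.4% of all genes. Their median was 10.52. DCTD, the deaminase that makes dUMP from dCMP and so bypasses DUT, was at 11.27, 11.28 and 11.17 log2 on arrays 1, 2 and 3, a mean of 11.24 ± 0.07 (SD, n = 3), in decile 10, and was the highest of the list. DUT and DCTD thus stood in deciles 7 and 10. MTHFD1, an enzyme of one-carbon metabolism, was at 10.82 ± 0.04, and SHMT1, which makes the methylene folate used by TYMS and which was not the lowest of the list, at 9.09 ± 0.01. Among nucleotide kinases, which include the step after DTYMK, 10 of 10 measured genes lay above the bound, with a median of 8.89. The highest were the nucleoside diphosphate kinases NME2 at 12.33 ± 0.06 and NME4 at 10.41 ± 0.09, and the lowest were NME6 at 7.26 ± 0.03 and CMPK2, a mitochondrial kinase, at 6.43 ± 0.14, which exceeded the bound on the mean by less than its SD and did not exceed it when array 1 or array 2 was left out.

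The lists of uptake and breakdown were the ones of these 8 with genes not above the bound. Over all genes, 56.4% lay above it. Of 13 genes of salvage and nucleoside uptake, 10 lay above the bound, with a median of 8.61, and UCK2, a uridine-cytidine kinase, and the equilibrative transporter SLC29A1 were highest, at 10.61 ± 0.04 and 10.06 ± 0.04 log2 (SD, n = 3). The 3 genes not above it were the concentrative transporters SLC28A1, SLC28A2 and SLC28A3, of which SLC28A3 was at 4.44 ± 0.09 and SLC28A2 at 4.29 ± 0.13. Of 16 genes of breakdown and pool cleansing, the list nearest in role to SAMHD1, 11 lay above the bound, with a median of 7.67. DCTPP1, a dCTP pyrophosphatase, was its highest at 11.36 ± 0.01, followed by the nucleotidase NT5C2 at 10.77 ± 0.04. The uridine phosphorylase UPP2, at 4.50 ± 0.16, and the surface nucleotidase NT5E, at 3.33 ± 0.16, were its lowest.

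Genes of DNA replication, and genes that regulate ribonucleotide reductase or SAMHD1, were set beside the enzymes. Over all genes, 56.4% lay above the bound and 10% in decile 10. Of 15 genes of the replication fork and its licensing, 15 lay above the bound and 8 in decile 10, with a median of 9.98, from MCM7 at 11.38 ± 0.04 log2 and CDC6 at 10.84 ± 0.06 down to POLA1 at 8.98 ± 0.03 and CDT1 at 8.94 ± 0.04 (SD, n = 3). RRM1, TYMS, TK1 and RRM2 lay within that range, as did SAMHD1, and DCK, DTYMK, RRM2B and DUT lay below it. Of the 6 genes that regulate ribonucleotide reductase or SAMHD1, all 6 lay above the bound, with a median of 9.75. CDK2 and CCNA2, the kinase and cyclin that phosphorylate SAMHD1, were at 10.77 ± 0.03 and 10.44 ± 0.03, and CDK1 and FZR1, an activator of the ubiquitin ligase that degrades RRM2 after mitosis, at 8.78 ± 0.06 and 8.70 ± 0.10. The lists are described beside each other and no difference between them was tested.

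**Figure D4:**
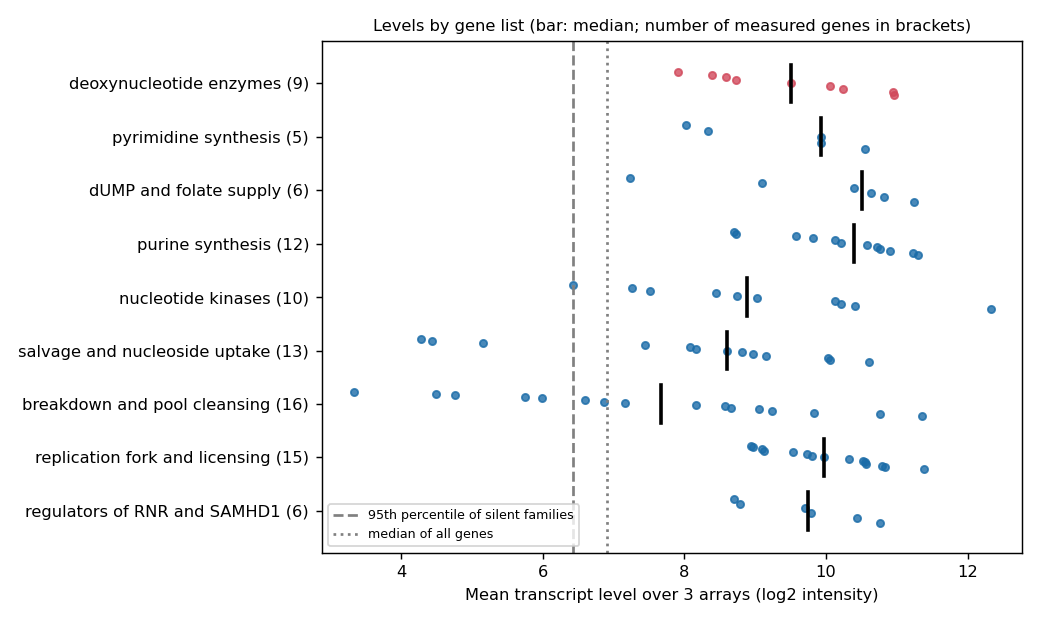
Mean level over the 3 arrays (x axis, log2 intensity) of the 9 enzymes (red) and of the genes of 8 related lists (blue), 1 point per gene, with the median of each list as a bar. The enzymes have a median of 9.50, purine synthesis 10.40 and breakdown and pool cleansing 7.67, and the points left of the dashed line at 6.42 are transporters and breakdown enzymes.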

How the data were processed

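Total RNA of 3 C33A cultures was hybridized to 1 array each. The authors scanned the arrays, normalized them by Robust Multichip Average (RMA), processed them with oneChannelGUI and deposited log2 intensities, 1 per probe set and array; no software version is stated in the sources used here. RMA gives the arrays a common distribution, so a change shared by all genes would not be seen. Precision is limited by how few arrays there are.

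Of 33297 probe sets, 19460 carry 1 symbol in the platform annotation and were used, while 1754 with several symbols and 12083 without a listed gene were not. Symbols were updated through the RefSeq gene table (18389 IDs found), and probe sets of a gene were averaged. No test was run, since all samples form 1 group. Genes named are the 9 members, the 2 highest and 2 lowest of each list, and genes overlapping a member, except some that are not reported here. The members and lists were chosen with earlier results of these data known. The planned protein comparison was not run. Functions were tested on simulated arrays. Alternatives left out each array and changed the probe set rule, symbols, centring, bound and deciles. Computations used Python 3.11.15, pandas 2.3.3, NumPy 2.4.6 and matplotlib 3.10.9.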

Additional observations from a re-analysis of the deposited data

How the results depend on the processing

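Under the 12 alternatives run, the 9 enzymes stayed above the bound wherever all 9 were measured, also at the 90th and 99th percentiles of the silent families (bounds of 5.86 and 7.88 log2) and at the 95th percentile of olfactory receptor genes alone (5.37), and decile 10 held 4 of them. At the 99th percentile DUT, at 7.91, exceeded the bound by less than its SD. No level moved by more than its SD over the arrays, the largest shift being 0.06 log2 for TYMS without array 1. That outcome was fixed in advance, since leaving out 1 of 3 arrays cannot move a mean by its SD. The other probe set rules, symbols and centring left the measured levels unchanged. The alternatives were therefore no test of how stable the levels are. The median level of the members was 9.47 to 9.53 when 1 array was left out. It was 9.78 when only genes with 1 probe set were used, which leaves out DTYMK and so 8 members. No count of genes above the bound in the lists moved by over 1.5 times, but some counts changed. At the 99th percentile the count fell from 10 to 7 for nucleotide kinases and from 6 to 5 for dUMP and folate supply. Not each measured gene of these lists then lay above it. The count also fell from 10 to 9 for salvage and uptake and from 11 to 8 for breakdown. At the 90th percentile and the olfactory receptor bound, breakdown rose to 12 and 13. Without array 1 or array 2, 9 nucleotide kinases lay above the bound. No paired analysis was possible because all samples belong to 1 group. With 3 arrays of 1 condition, no difference between conditions can be seen.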

Other observations

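CHD8, the remodeller that the study is about, was at 8.07, 9.33 and 9.20 log2 on arrays 1, 2 and 3 (SD 0.69, n = 3). TYMS was at 10.83, 10.99 and 11.03 on the same arrays (SD 0.11). The median SD of all genes was 0.08, so CHD8 varied far more between these arrays than most genes and than TYMS. CHD8 and TYMS were lowest on array 1, as were RRM1, TK1 and RRM2B, while RRM2, SAMHD1, DTYMK and DUT were lowest on array 2 and DCK on array 3. The arrays hold 1 condition and CHD8 was singled out after its values were seen, so no relation was tested.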
